A study of Mus musculus with 3 samples.

Results

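The 10 genes described here encode 4 proteins of the SIBLING family (Spp1, Ibsp, Dmp1 and Mepe) and 6 proteins that act on phosphate, pyrophosphate or mineral (Phex, Alpl, Phospho1, Enpp1, Ank and Ifitm5). They were chosen by name from the gene symbols of the deposited files, and all 10 were found among 32285 listed genes. The cells came from the femoral fracture callus of C57BL/6 mice, taken at day 7, day 10 and day 14 after fracture, with 1 droplet library per day. By the study's methods, the femur was cut under isoflurane and held by a steel pin, with buprenorphine against pain. The study used mice of both sexes. The callus was digested with collagenase, and live cells negative for CD45, CD31 and TER119 were sorted to leave out blood and endothelial cells. The age of the mice, and how many mice gave each library, are not given in the sources used here. Day and library cannot be told apart in this design, so no test was run and every interval covers counting error only.

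SIBLING proteins are acidic, phosphorylated, integrin-binding proteins of bone and dentin matrix. Osteopontin (Spp1) inhibits crystal growth and binds cells, whereas bone sialoprotein (Ibsp) and dentin matrix protein 1 (Dmp1) are linked to the start and spread of mineral, and Mepe carries an acidic peptide that inhibits it. Mineral grows where phosphate is plentiful and its inhibitor pyrophosphate is scarce. Enpp1 makes extracellular pyrophosphate from nucleotides, and Ank promotes the release of pyrophosphate precursors from the cell. Tissue-nonspecific alkaline phosphatase (Alpl) breaks pyrophosphate down, and Phospho1 frees phosphate inside matrix vesicles. Phex is an endopeptidase that cleaves the acidic peptides of SIBLING proteins, and Ifitm5 is a small membrane protein of mineralizing osteoblasts. In a callus, hypertrophic chondrocytes, marked by type X collagen (Col10a1), and osteoblasts, marked by osteocalcin (Bglap), both lie in matrix that mineralizes.

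The 4 SIBLING genes lie on the same strand of chromosome 5 in build GRCm38 (mm10), the build of the deposited files. From Dspp to Spp1 the annotation holds 5 protein-coding genes within 270 kb, in the order Dspp, Dmp1, Ibsp, Mepe, Spp1. Dmp1 spans chr5:104202613-104214102, Ibsp chr5:104299171-104311469, Mepe chr5:104325329-104338611 and Spp1 chr5:104435118-104441050, all on the plus strand. The others are scattered: Phex at chrX:157162075-157415312 (minus strand), Alpl at chr4:137741733-137796384 (minus), Phospho1 at chr11:95824499-95832140 (plus), Enpp1 at chr10:24637914-24712159 (minus), Ank at chr15:27466677-27594909 (plus) and Ifitm5 at chr7:140948958-140950291 (minus). Phospho1 overlaps Zfp652 on the same strand, so reads that both genes share could be lost from its count.

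Because 4 neighbouring genes with different levels in the callus are compared, the sequence before their starts is shown, 5′ to 3′ on the plus strand, from the RefSeq promoter windows of GRCm38.p6. Capitals mark 3 short motifs: ATTGG (or CCAAT on the other strand), ACCACA (or TGTGGT) and TTTAAA (its own complement). The Dmp1 stretch is chr5:104202497-104202612, the Ibsp stretch chr5:104299221-104299250, the Mepe stretch chr5:104325209-104325328 and the Spp1 stretch chr5:104434991-104435110.
Dmp1: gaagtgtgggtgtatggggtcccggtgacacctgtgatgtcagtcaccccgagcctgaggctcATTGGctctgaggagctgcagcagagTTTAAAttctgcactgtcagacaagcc
Ibsp: gccacagctgtgATTGGctgttgagaggcg
Mepe: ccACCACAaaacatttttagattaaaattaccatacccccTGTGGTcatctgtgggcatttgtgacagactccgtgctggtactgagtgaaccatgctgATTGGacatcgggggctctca
Spp1: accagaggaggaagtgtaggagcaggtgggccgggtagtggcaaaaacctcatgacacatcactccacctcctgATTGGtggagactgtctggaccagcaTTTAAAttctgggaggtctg

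The Ibsp stretch is kept to 30 bases because the GENCODE gene model begins 116 bases before the RefSeq start. It therefore lies upstream of the RefSeq start only, and inside the gene as GENCODE and the deposited files have it. The motifs were picked after these sequences had been read. Within the 120 bases before the RefSeq start, ATTGG or CCAAT occurred in 4 of the 4 SIBLING genes and in 21.3% of 32851 windows of the same length. Its first base lay 57 bases before the start in Dmp1, 54 in Ibsp, 46 in Spp1 and 21 in Mepe, as ATTGG in every case. TTTAAA occurred in 2 of 4 (Dmp1 and Spp1) against 5.20% of windows, and ACCACA or TGTGGT in 1 of 4 (Mepe) against 6.72%. Of the other 6 genes, Phospho1 held ATTGG, Phex held TTTAAA, and Alpl, Enpp1, Ank and Ifitm5 held none of the 3 motifs. These matches describe letters and are not evidence of binding.

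After the limits of the study's methods, 7017, 6593 and 9853 cells remained at day 7, 10 and 14, with median depths of 5056, 17370 and 15802 unique molecular identifiers (UMIs, each counted once per captured transcript). At day 7, 95.9% of the cells carried leukocyte genes, against 0.167% at day 10 and 1.85% at day 14, and these cells were set apart. Of the remaining cells, Col10a1-high cells had at least 50 Col10a1 UMIs per 10,000 and numbered 10, 601 and 1506. Bglap-high cells had at least 10 UMIs per 10,000 of Bglap and Bglap2, near-identical genes between which reads can be split, and numbered 9, 62 and 188. Aspn-high cells had at least 20 Aspn UMIs per 10,000 and numbered 16, 1364 and 3090, and cells passing more than 1 of these rules (0, 105 and 122) formed a group of their own. The day 7 classes held fewer than 20 cells each and were given no ratio. Between libraries, 29 to 42 of the deposited cell barcodes were shared.

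The classes were checked against marker lists, leaving out Col10a1, Bglap, Bglap2 and Aspn, which define them. The other 7 hypertrophic chondrocyte markers summed to 44487 and 30985 CPM (UMIs scaled to a total of 1e+06 per class) in Col10a1-high cells at day 10 and day 14, against 24261 and 13016 in Bglap-high and 5317 and 3852 in Aspn-high cells. On the full list of 8, Col10a1 included, Col10a1-high cells had 71082 and 56310.5 CPM. Cells that passed no class rule but were high for Col2a1 had 51557 and 43014 CPM. The list holds Col2a1 itself, so its sum does not separate hypertrophic from other chondrocytes. The other 6 osteoblast markers summed to 135025 and 106964 CPM in Bglap-high cells, against 54488 and 55239 in Aspn-high and 21407 and 19427 in Col10a1-high cells. The other 5 Postn progenitor markers summed to 21451 and 20778 CPM in Aspn-high cells and to at most 3926 CPM in the other 2 classes. Markers of leukocytes, macrophages, endothelium and erythroid cells summed to at most 16.8 CPM per list in any of the 3 classes at these days. Pericyte markers summed to at most 41.8 CPM, in Aspn-high cells of day 14, with 34.7 CPM in Bglap-high cells of that day. Osteoclast markers summed to 14.6 to 116 CPM, most of it Mmp9 in Col10a1-high cells (109 and 56.4 CPM). Bglap-high cells were not uniform: 41.9% of them at day 10 and 27.7% at day 14 also held at least 50 Col2a1 UMIs per 10,000, the level set here for cartilage collagen.

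RNA released from broken cells can reach other droplets, so Spp1 and Ibsp were also read in cells of other types. Those cells may make either transcript themselves, so the values are not a level of released RNA alone. In day 7 leukocytes Spp1 stood at 64.9 CPM and Ibsp at 310 CPM. The 11 leukocyte-gene cells of day 10 had 5609 and 2045 CPM, and the 182 of day 14 had 9049 and 5608 CPM. At those days their Spp1 was above that of Aspn-high cells (1466 and 2677 CPM). Their Ibsp was below the Aspn-high level at day 10 (2592 CPM) and above it at day 14 (2172 CPM). Cells high for Rgs5, a pericyte gene, had 349 and 2022 CPM of Spp1 and 256 and 1350 CPM of Ibsp at day 10 and day 14. With every cell thinned to 2000 UMIs, 21.7% and 48.6% of Rgs5-high cells still showed an Spp1 UMI and 23.2% and 36.3% an Ibsp UMI. The unthinned median depths of these cells were 12529 and 9263 UMIs.

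Spp1 was highest in Col10a1-high cells, with 21138 CPM at day 10 (95% Poisson interval 21051 to 21225) and 30352 CPM at day 14 (30284 to 30419). Bglap-high cells followed with 17094 CPM (16842 to 17348) and 23453 CPM (23261 to 23645). Aspn-high cells had 1466 CPM (1449 to 1482) and 2677 CPM (2661 to 2692), beside 349 and 2022 CPM in Rgs5-high cells. The Rgs5-high mean of day 14 was carried by few cells, 10% of them holding 87.9% of its Spp1 UMIs. The median Aspn-high cell of day 14 had 8.87 Spp1 UMIs per 10,000 and the median Rgs5-high cell 3.15, and after thinning 76.9% and 48.6% of them had a UMI. Col10a1-high cells were thus 14.4-fold and 11.3-fold above Aspn-high cells, and Bglap-high cells 11.7-fold and 8.76-fold. With only the Col10a1-high cells under 5 Mmp13 UMIs per 10,000, the log2 ratio over Aspn-high cells was 1.91 and 2.75 in place of 3.85 and 3.50. Between Bglap-high and Col10a1-high cells the log2 ratio of Spp1 was −0.31 at day 10 and −0.37 at day 14. Against only those Col10a1-high cells it was 1.63 and 0.38, and with cells passing 2 or 3 rules kept in each class it was −1.25 and −0.62. In the day 7 library the 10 Col10a1-high cells held 33031 CPM of Spp1, the 9 Bglap-high cells 1136 CPM and the 16 Aspn-high cells 438 CPM.

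Ibsp had the other very high level. Col10a1-high cells carried 29303 CPM at day 10 (29201 to 29405) and 20461 CPM at day 14 (20406 to 20517), and Bglap-high cells 21780 CPM (21495 to 22067) and 28258 CPM (28048 to 28470). The order of these classes therefore differed between the libraries, with log2 ratios of Bglap-high over Col10a1-high of −0.43 and 0.47. With cells passing 2 or 3 rules kept these were −1.10 and 0.09, and with only the Bglap-high cells under 50 Col2a1 UMIs per 10,000 they were −1.13 and 0.36. With only the Col10a1-high cells under the Mmp13 level, the day 14 ratio was −0.10. Aspn-high cells had 2592 and 2172 CPM, and the 10% of them with the most held 79.6% and 79.9% of the Ibsp UMIs, so that the signal sat in few cells. After thinning, 47.0% and 51.3% of Aspn-high cells had an Ibsp UMI, compared with 93.4% and 85.7% of Col10a1-high cells. At day 7 the level was 34426 CPM in Col10a1-high, 17609 CPM in Bglap-high and 2856 CPM in Aspn-high cells.

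Dmp1, a gene best known from osteocytes and late osteoblasts, separated the classes more sharply. Bglap-high cells had 419 CPM at day 10 (380 to 460) and 300.2 CPM at day 14 (279 to 323). Col10a1-high cells had 62.2 CPM (57.5 to 67.0) and 81.6 CPM (78.1 to 85.1), and Aspn-high cells 1.57 and 2.93 CPM. The Aspn-high values lay below those of Rgs5-high cells (14.9 and 16.0 CPM), so no fold over them is given. The log2 ratio of Bglap-high over Col10a1-high was 2.75 (2.57 to 2.93) at day 10 and 1.88 (1.76 to 2.00) at day 14. The day 10 ratio was 1.72 with cells passing 2 or 3 rules kept and 3.64 with only the Bglap-high cells under 50 Col2a1 UMIs per 10,000, and 10% of the 62 cells held 78.4% of these Dmp1 UMIs. The day 14 ratio was 3.39 with only the Col10a1-high cells under the Mmp13 level. Most cells showed no Dmp1 UMI. Without thinning, a UMI was found in 37.1% and 30.9% of Bglap-high, 9.98% and 12.7% of Col10a1-high and 0.880% and 1.23% of Aspn-high cells. These shares depend on depth and do not limit the share of cells that express Dmp1. The 2 day 7 Bglap-high cells with a Dmp1 UMI (22.2% of 9) gave that class 2300 CPM.

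Mepe was found in very few cells. Col10a1-high cells had 24 Mepe UMIs at day 10 (2.23 CPM) and 37 at day 14 (1.44 CPM), Bglap-high cells 3 and 9 (2.92 and 3.68 CPM), and Aspn-high cells 0 and 5. The day 10 count of 0 in Aspn-high cells allows up to 0.142 CPM at 3 UMIs. At these days the highest share of cells with a Mepe UMI was 3.72%, in Bglap-high cells of day 14, and no ratio was read from these counts. Single cells nonetheless carried clear Mepe. At day 14 the cells that passed none of the rules, Rgs5 and Col2a1 rules included, held 107 Mepe UMIs in 14 of 2055 cells. These were 64.1% of all Mepe UMIs outside leukocytes, with up to 32.3 per 10,000 in 1 cell.

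Col10a1-high and Bglap-high cells are called the mineralizing classes from here on, although mineral itself was not measured. Phex was found in both of them and hardly at all in Aspn-high cells. Its level was 124 CPM (118 to 131) and 92.9 CPM (89.2 to 96.7) in Col10a1-high cells, 272 CPM (241 to 305) and 106 CPM (93.3 to 119) in Bglap-high cells, and 2.04 and 2.70 CPM in Aspn-high cells. The Aspn-high values were not above those of Rgs5-high cells, at 2.13 and 8.27 CPM. No fold over them is given. The excess of Bglap-high over Col10a1-high cells, a log2 ratio of 1.13 at day 10, was 0.19 (−0.00 to 0.37) at day 14. At day 10, 72.0% of the Bglap-high Phex UMIs came from the 10% of the 62 cells with the most.

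Alpl was present in all 3 classes, and its mineralizing classes stood less far above Aspn-high cells than for Spp1, Ibsp, Dmp1 or Phex. It stood at 1072 CPM (1053 to 1092) and 873 CPM (861 to 884) in Col10a1-high cells, 1040 CPM (979 to 1105) and 1046 CPM (1006 to 1088) in Bglap-high cells, and 427 CPM (419 to 436) and 383 CPM (377 to 389) in Aspn-high cells. At day 10 the intervals of the first 2 classes overlapped. Rgs5-high cells had 26.6 and 69.8 CPM, so the Aspn-high level lay well above that of Rgs5-high cells. Both mineralizing classes exceeded Aspn-high cells by 2.28-fold to 2.73-fold over the 2 days, but with only the Bglap-high cells under the Col2a1 level the day 10 log2 ratio was 0.52 in place of 1.28. Phospho1, in contrast, was barely captured, with 2.32 and 1.36 CPM in Col10a1-high, 3.89 and 11.4 CPM in Bglap-high and 0.379 and 0.159 CPM in Aspn-high cells. Its day 14 value in Bglap-high cells rests on 28 UMIs.

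Of the genes of pyrophosphate supply, Enpp1 did not follow the matrix proteins. Enpp1 was 103 CPM (97.1 to 109) and 156 CPM (151 to 161) in Col10a1-high, 214 CPM (187 to 244) and 137 CPM (123 to 153) in Bglap-high, and 181 CPM (175 to 187) and 202 CPM (198 to 207) in Aspn-high cells. Aspn-high cells thus had as much of it as the mineralizing classes or more, apart from Bglap-high cells at day 10. No class pair reached 2-fold except Bglap-high over Col10a1-high at day 10 (log2 ratio 1.06, 0.84 to 1.27). That ratio fell below 2-fold under several alternatives. It was 0.16 with cells passing 2 or 3 rules kept, 0.64 with cells thinned to 2000 UMIs and 0.80 with all deposited barcodes. With only the Col10a1-high cells under the Mmp13 level it was 1.80. Ank was 101 CPM (95.1 to 107) and 155 CPM (150 to 160) in Col10a1-high, 222 CPM (194 to 253) and 100.5 CPM (88.3 to 114) in Bglap-high, and 69.6 CPM (66.1 to 73.3) and 76.0 CPM (73.5 to 78.6) in Aspn-high cells. The Bglap-high Ank level at day 10 came to 81.6% from the 10% of its 62 cells with the most. For both genes the order of Bglap-high and Col10a1-high cells was opposite in the 2 libraries.

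Among the 3 classes, Ifitm5 was high in Bglap-high cells alone. Bglap-high cells had 637 CPM (589 to 687) at day 10 and 858 CPM (822 to 896) at day 14, whereas Col10a1-high cells had 12.3 and 4.89 CPM and Aspn-high cells 2.61 and 5.11 CPM. Rgs5-high cells had 2.13 CPM (0.258 to 7.70) and 8.79 CPM (5.12 to 14.1), and neither the Aspn-high values nor the Col10a1-high value of day 14 lay above these intervals. Its log2 ratio of Bglap-high over Col10a1-high was 5.70 (5.43 to 5.98) at day 10. It was 4.69 with cells passing 2 or 3 rules kept and 7.05 with only the Col10a1-high cells under the Mmp13 level. The day 14 ratio, over a value of 4.89 CPM, is drawn with the other ratios but is not read as a size. An Ifitm5 UMI was present in 57.6% and 59.3% of thinned Bglap-high cells and in 1.36% and 0.674% of thinned Col10a1-high cells. All 9 day 7 Bglap-high cells (100% of them) had an Ifitm5 UMI, and none of the 10 Col10a1-high cells did, which allows up to 13.5 CPM at 3 UMIs.

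**Figure D1:**
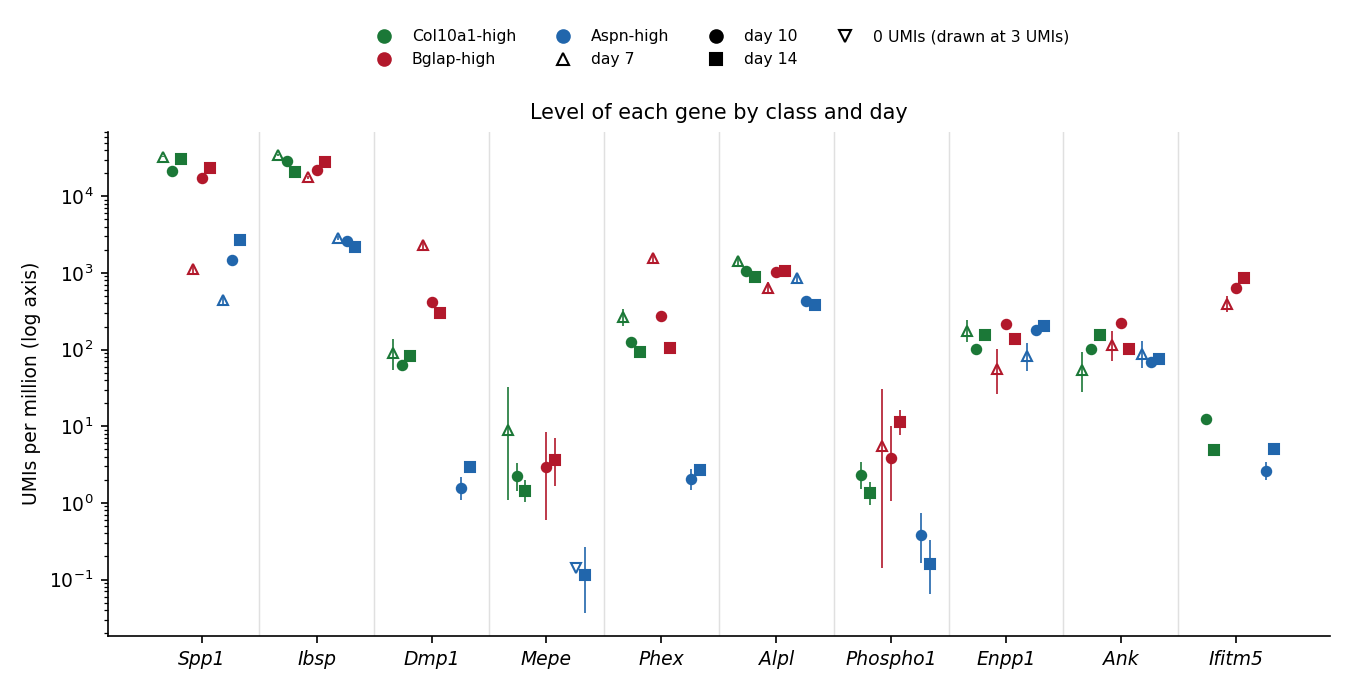
Level of each of the 10 genes in CPM on a log axis, by class (colour) and day (marker shape), with 95% Poisson intervals that cover counting error only. Counts of 0 at day 10 and day 14 are drawn as open triangles at the level of 3 UMIs, counts of 0 at day 7 are left out, and the day 7 markers rest on 9 to 16 cells per class. Spp1 and Ibsp stand at 17094 CPM or more in Col10a1-high and Bglap-high cells of day 10 and day 14, Ifitm5 and Dmp1 are highest in Bglap-high cells, and Enpp1 lies between 103 and 214 CPM in every class at these 2 days.

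The members were next set beside all genes. A gene entered a comparison when its mean CPM over both classes was at least 10, and it was counted when the classes differed at least 2-fold. Of the 10 members, 8 entered Bglap-high over Col10a1-high at day 10 and 5 were higher in Bglap-high cells (Dmp1, Phex, Enpp1, Ank and Ifitm5), with 0 lower. Among 7085 genes, 6.46% were higher and 11.3% lower by that measure. At day 14, 2 of 8 were higher (Dmp1 and Ifitm5) and 0 lower, against 7.19% higher and 7.05% lower among 7053 genes. Ifitm5, under 10 CPM in Col10a1-high cells of day 14, entered only through Bglap-high cells and had to be counted as higher. The members' median log2 ratio was 1.09 and 0.22 where the median of all genes was −0.19 and −0.07. The day 10 count depended on how cells passing 2 or 3 rules were treated: with them kept, 2 members were higher (Dmp1 and Ifitm5) and 2 lower (Spp1 and Ibsp), Phex, Enpp1 and Ank being at log2 ratios of 0.26, 0.16 and 0.26.

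Against Aspn-high cells, 7 of 8 members were higher in Bglap-high cells at day 10 and 6 of 8 at day 14, with 0 lower, beside 5.41% and 4.55% of all genes higher and 17.9% and 13.3% lower. In Col10a1-high cells 5 of 7 were higher at day 10 and 6 of 7 at day 14, with 0 lower, beside 7.65% and 6.87% higher and 14.8% and 16.7% lower. Dmp1, Phex and Ifitm5, under 10 CPM in Aspn-high cells, entered only through the class where they were high and so had to be counted as higher, which makes these counts a description. Spp1, Ibsp, Dmp1, Phex and Alpl were in each of these 4 counts. Enpp1 was in none, at log2 ratios of 0.24 and −0.56 for Bglap-high and −0.81 and −0.38 for Col10a1-high cells. Mepe and Phospho1 stayed under the minimum in all comparisons, and Ifitm5 in those without Bglap-high cells. Ank passed at day 14 in Col10a1-high cells by little, at a log2 ratio of 1.02 (0.96 to 1.09), and was at 0.72 with only the Col10a1-high cells under the Mmp13 level.

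**Figure D2:**
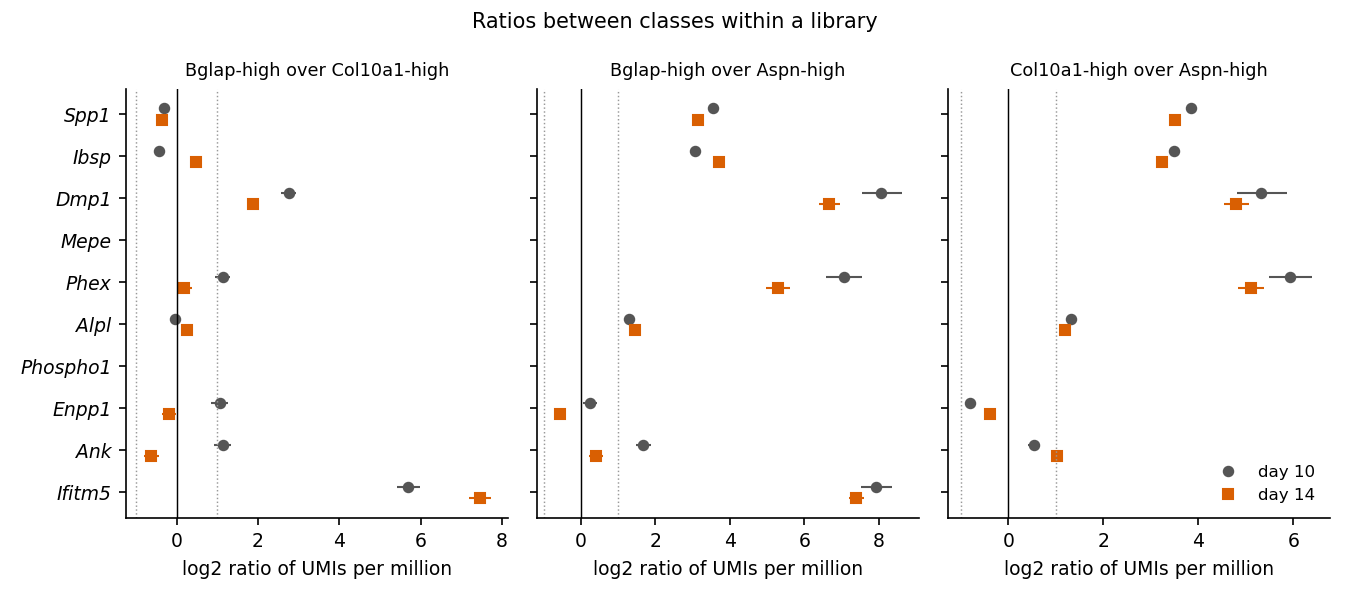
Log2 ratio of CPM between 2 classes of the same library for each gene with a mean of at least 10 CPM, at day 10 (circles) and day 14 (squares), with exact binomial 95% intervals for counting error. Dotted lines mark 2-fold. Ifitm5 and Dmp1 lie to the right in both comparisons of Bglap-high cells where they are drawn, and Ibsp, Enpp1 and Ank change side between the 2 days in the left panel.

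Between day 10 and day 14 few members were far apart within a class, with the limit that each day is 1 library. In Col10a1-high cells 0 of 7 members were at least 2-fold apart (0.311% of 7085 genes higher and 0.776% lower at day 14). The sizes were 0.52 on the log2 scale for Spp1, 0.60 for Enpp1, 0.62 for Ank, 0.39 for Dmp1, −0.52 for Ibsp, −0.42 for Phex and −0.30 for Alpl. In the Col10a1-high cells under the Mmp13 level 3 members were at least 2-fold higher at day 14, Spp1 at 1.70, Ank at 1.40 and Enpp1 at 1.07, and Dmp1 was at −0.96. In Bglap-high cells 2 of 8 were lower at day 14, Phex at −1.36 (−1.61 to −1.11) and Ank at −1.14 (−1.41 to −0.88), beside 2.71% of 6894 genes lower and 2.67% higher. With cells passing 2 or 3 rules kept, these were −0.83 and −0.47. In Aspn-high cells 0 of 5 passed (0.168% of genes higher, 0.864% lower), and Spp1 was nearest at 0.87.

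Within the Col10a1-high class, Spp1 and Ibsp differed in opposite directions with Mmp13. The class was divided by Mmp13, the collagenase of terminal hypertrophic cartilage, at 5 UMIs per 10,000, which placed 349 of 601 cells at day 10 and 985 of 1506 at day 14 in the Mmp13-positive part. Spp1 was 33710 CPM in Mmp13-positive and 5520 CPM in the other Col10a1-high cells at day 10, and 38156 against 17977 CPM at day 14. Ibsp went the other way, with 25676 against 33809 CPM at day 10 and 14229 against 30343 CPM at day 14. Alpl shared the direction of Ibsp, with 735 against 1491 CPM and 657 against 1214 CPM. In Mmp13-positive cells Spp1 thus exceeded Ibsp, and in the others Ibsp exceeded Spp1, in both libraries.

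The pyrophosphate genes took the side of Spp1. Enpp1 was 136 CPM in Mmp13-positive against 61.7 CPM in the other cells at day 10 and 172 against 130 CPM at day 14. Ank was 144 against 47.5 CPM and 173 against 125 CPM. Dmp1 was close at day 10 (67.2 against 55.8 CPM) and higher in Mmp13-positive cells at day 14 (115 against 28.7 CPM). Phex differed little and in opposite directions, with log2 ratios of 0.50 and −0.28. Col2a1 was lower in Mmp13-positive cells, at 16963 against 49403 CPM and 13786 against 32578 CPM, so the part with more Spp1 and less Ibsp also had less cartilage collagen.

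**Figure D3:**
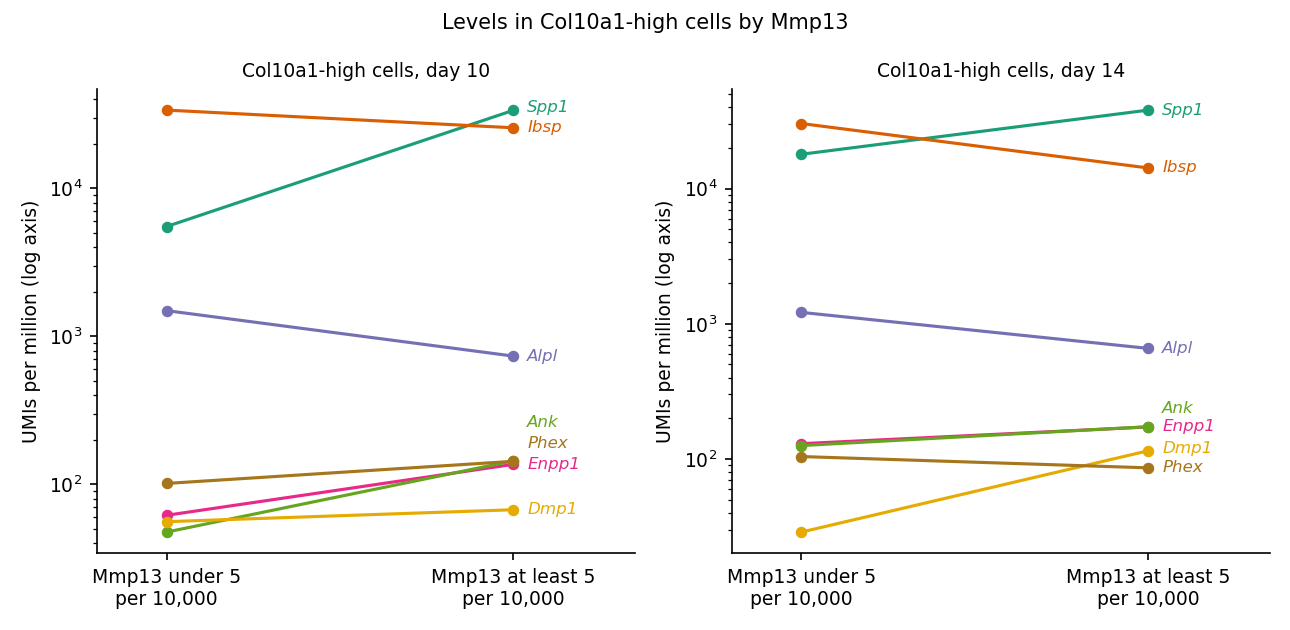
CPM (log axis) of 7 genes in Col10a1-high cells below and at or above 5 Mmp13 UMIs per 10,000, at day 10 (252 and 349 cells) and day 14 (521 and 985 cells), with each line joining the 2 parts of 1 library. The lines of Spp1 and Ibsp cross at both days, Alpl is lower and Enpp1 and Ank are higher in the Mmp13-positive part.

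Across single cells the relations were in part like those of the division by Mmp13. Across the 601 and 1506 Col10a1-high cells, Pearson's r of log2(1 + UMIs per 10,000) was 0.51 and 0.45 for Ibsp with Alpl, 0.39 and 0.37 for Spp1 with Ank, 0.34 and 0.33 for Spp1 with Enpp1, and 0.44 and 0.43 for Enpp1 with Ank. Spp1 and Alpl had r of −0.33 and −0.18, and Spp1 and Ibsp were weakly positive at 0.11 and 0.20, although the division by Mmp13 set them apart. In the 62 and 188 Bglap-high cells Enpp1 with Ank reached 0.67 and 0.55, Spp1 with Enpp1 0.60 and 0.50, and Dmp1 with Phex 0.66 and 0.38, whereas Enpp1 with Ifitm5 was −0.54 and −0.31. Spp1 was positive with Ibsp (0.59 and 0.35) and with Alpl (0.40 and 0.18) in these cells, the latter opposite in sign to Col10a1-high cells. In Bglap-high cells Spp1 also correlated with cell depth at 0.31 and 0.37, and Alpl at 0.47 and 0.47. Ibsp was at 0.24 and 0.31 with depth, Enpp1 at 0.25 and 0.21 and Ank at 0.13 and 0.25. The positive r values of Spp1 with Alpl, Ibsp and Enpp1, and of Enpp1 with Ank, were therefore not separated from depth. The cells of each day share 1 library, and these genes correlated with cell depth at −0.10 to 0.14 in Col10a1-high cells and −0.17 to 0.47 in Bglap-high cells.

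The Bglap-high class was mixed as well. The 36 cells at day 10 and 136 at day 14 with Col2a1 under 50 per 10,000 had 774 and 392 CPM of Dmp1, 542 and 132 CPM of Phex and 1003 and 1178 CPM of Ifitm5. The 26 and 52 cells with more Col2a1 had 123 and 161 CPM of Dmp1, 46.4 and 66.8 CPM of Phex and 332 and 374 CPM of Ifitm5. Alpl was higher in the cells with more Col2a1, at 1394 against 615 CPM and 1345 against 850 CPM. Spp1 differed by log2 ratios of 0.29 and −0.34, and Ibsp by 1.11 and 0.26, of the cells with more over those with less Col2a1. Dmp1, Phex and Ifitm5 were thus on one side of this division and Alpl on the other, but across single Bglap-high cells Ifitm5 went with neither Dmp1 (r of −0.11 and 0.07) nor Phex (0.10 and 0.00).

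Of 165 cells that passed the Bglap rule at day 10, 98 also passed the Aspn rule but not the Col10a1 rule. At day 14 this held for 58 of 273, and 2 others passed all 3 rules. Besides Bglap (1921 and 3781 CPM) the 98 and 58 cells carried Postn, a progenitor marker (6936 and 5965 CPM). Alpl was at 1009 and 846 CPM, near the level of the mineralizing classes. The other members were low beside Bglap-high cells: Spp1 546 and 1503 CPM, Ibsp 3252 and 1668 CPM, Dmp1 1.92 and 15.9 CPM, Phex 13.4 and 14.5 CPM, Ifitm5 13.4 and 60.9 CPM, Enpp1 22.1 and 56.5 CPM, Ank 24.0 and 26.1 CPM. Beside Aspn-high cells, Ifitm5 and Phex were higher in the 98 and 58 cells at both days, Dmp1 at day 14 and Ibsp at day 10. Spp1 and Ank were lower there at both days. Enpp1 of the 98 and 58 cells was below that of both parent classes, and whether any of these droplets held more than 1 cell was not tested.

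Levels of some members were also read in bins of Col10a1 and of Bglap, in all cells outside the leukocyte group. The bins order cells by marker level and not by time. At day 14 Spp1 was 5112 CPM in cells with 0 Col10a1 UMIs and 6372 CPM below 10 per 10,000, then 32016 CPM from 10 to 50, 32167 CPM from 50 to 200 and 27532 CPM above. Ibsp was 8486, 10724, 25811, 22393 and 17613 CPM over the same bins, so both were at full level in cells below the Col10a1 cut. Ifitm5 went from 124 CPM in the first of these bins to 3.83 CPM in the last. Along Bglap plus Bglap2 at day 14, Ifitm5 went from 51.9 CPM at 0 UMIs to 1031 CPM at 50 or more per 10,000, Dmp1 from 36.0 to 305 CPM and Phospho1 from 1.42 to 12.1 CPM, while Alpl stayed between 587 and 1021 CPM.

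**Figure D4:**
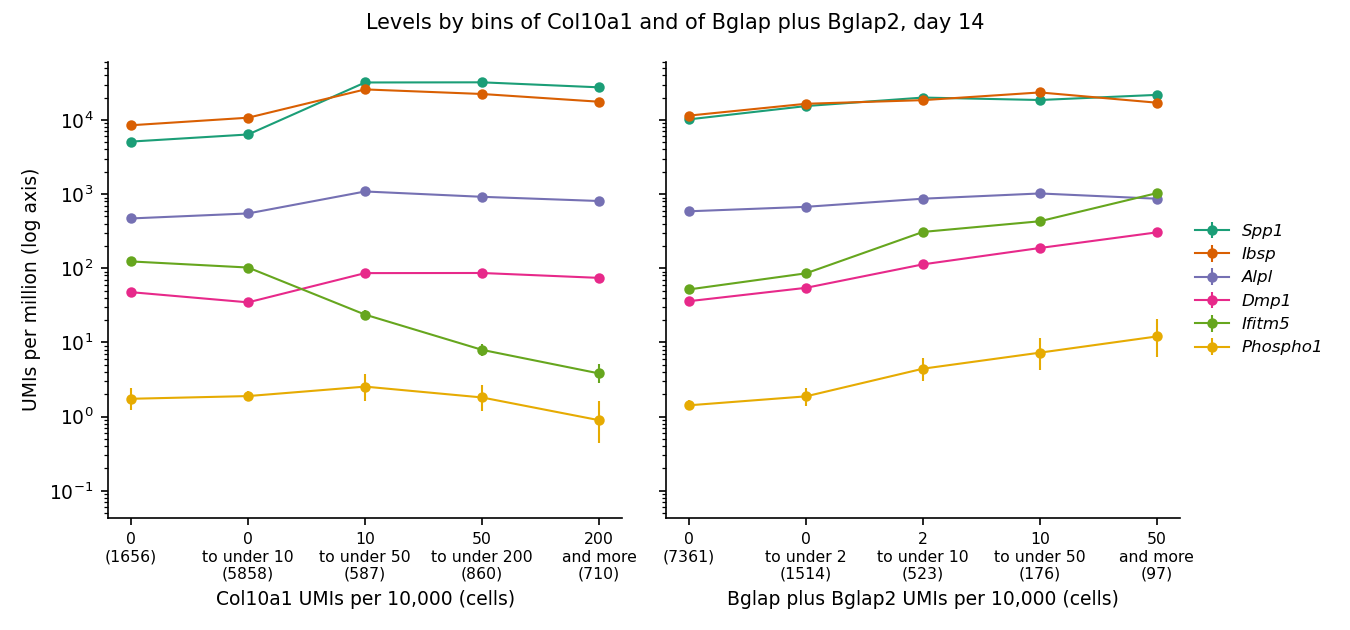
CPM (log axis) of 6 genes at day 14 in bins of Col10a1 (left) and of Bglap plus Bglap2 (right) UMIs per 10,000, over all cells outside the leukocyte group, with cell numbers under each bin and 95% Poisson intervals. The first bin holds cells with 0 UMIs and the second cells above 0. Spp1 and Ibsp step up in the third Col10a1 bin, Ifitm5 is lower in each further Col10a1 bin, and Ifitm5 and Dmp1 are higher in each further Bglap bin.

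The transcripts were spread unevenly over the cells. Of the UMIs outside leukocytes, Col10a1-high cells, 9.13% and 15.6% of the cells at day 10 and day 14, held 39.0% and 43.2% of Spp1, 20.9% and 26.6% of Ibsp and 36.6% and 39.4% of Phex. Bglap-high cells, 0.942% and 1.94% of the cells, held 16.1% and 16.4% of Ifitm5 and 11.8% and 10.1% of Dmp1 but 3.01% and 3.18% of Spp1. Aspn-high cells, 20.7% and 32.0% of the cells, held 27.1% and 38.1% of Enpp1. Col2a1-high cells that passed no class rule held 54.0% and 37.6% of Ibsp and were 50.6% and 26.1% of the cells. The largest shares of Ifitm5, 55.5% and 71.9%, and of Dmp1, 40.9% and 44.5%, lay in cells that passed none of the rules, the Rgs5 and Col2a1 rules included.

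Those cells were therefore divided by Ifitm5 at 5 UMIs per 10,000, a division chosen after these shares had been seen. It set apart 68 of 1050 cells at day 10 and 252 of 2055 at day 14. Their Ibsp was 73191 and 68215 CPM, above every class, against 15124 and 11678 CPM in the remaining cells. Alpl was 1625 against 435 CPM and 1167 against 530 CPM, Phex 141 against 33.5 CPM and 129 against 46.8 CPM, and Dmp1 159 against 93.9 CPM and 307 against 89.3 CPM. Enpp1 was 31.5 against 264 CPM and 17.3 against 208 CPM, and Ank 46.8 against 231 CPM and 27.6 against 196 CPM. Spp1 differed little, at log2 ratios of 0.37 and −0.26. Col1a1 in these cells, at 42480 and 41941 CPM, was 2.38-fold and 2.78-fold that of the rest, and Phospho1 reached 8.10 and 11.6 CPM.

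**Figure D5:**
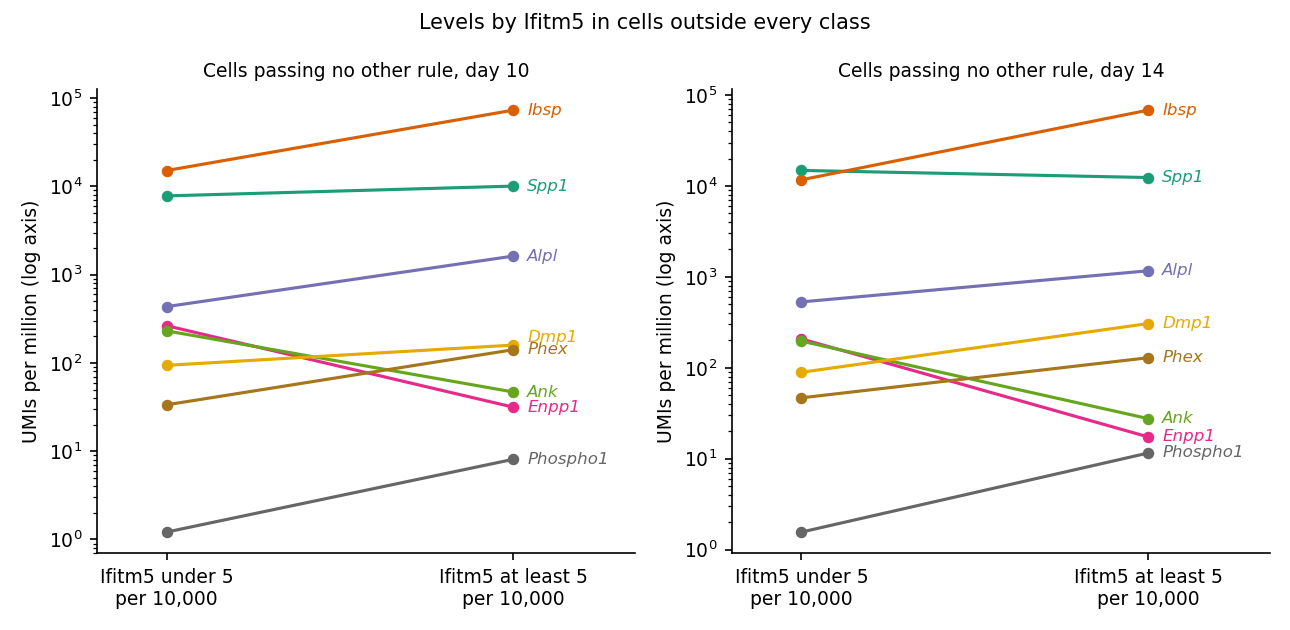
CPM (log axis) of 8 genes in cells that passed none of the rules, the Rgs5 and Col2a1 rules included. They are divided below and at or above 5 Ifitm5 UMIs per 10,000, at day 10 (982 and 68 cells) and day 14 (1803 and 252 cells). Ibsp, Alpl, Dmp1, Phex and Phospho1 are higher and Enpp1 and Ank lower in the Ifitm5-positive cells at both days, while Spp1 is nearly level.

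Over 18 profiles, each the summed cells of 1 class in 1 library, the members most alike were Ibsp and Alpl (r = 0.89 of log2(CPM + 10)), Spp1 and Ibsp (0.87), Enpp1 and Ank (0.87) and Dmp1 and Ifitm5 (0.86). The profiles share libraries and class rules, so r is a description. Among the genes reaching 20 CPM that are reported here, the nearest were Cd200 and Cdkn1a for Spp1 (both 0.91), Tmie and Cdkn1a for Ibsp (0.92 and 0.91), Cadm1 for Dmp1 (0.87), Bmp8a and Bambi for Phex (0.93 and 0.91), Ptgis and Shf for Alpl (0.94 and 0.93), A430005L14Rik and Ltbp1 for Enpp1 (0.91 and 0.90), Gm41724 and Wif1 for Ank (0.89 and 0.88), and Bmp3 and Hhip for Ifitm5 (0.95 and 0.93). Mepe and Phospho1 did not reach 20 CPM.

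The wider pathway was followed in 35 genes grouped in 6 lists. In Bglap-high over Col10a1-high cells, 4 of 24 genes with at least 10 CPM were higher and 4 lower at day 10, and 5 and 3 of 24 at day 14, beside 6.46% and 7.19% of all genes higher and 11.3% and 7.05% lower. Of the transcription factors, Sp7 (175 and 147 CPM against 62.1 and 55.5 CPM) and Vdr (log2 ratios 1.79 and 1.24) were higher at both days; Sp7 acts in osteoblast differentiation, and Vdr is the vitamin D receptor. Mgp, the mineral inhibitor of cartilage, was lower in Bglap-high cells by log2 ratios of −2.12 and −3.53, with 13922 and 20929 CPM in Col10a1-high cells. Itgb3, a subunit of an integrin that binds SIBLING proteins, was at 43.7 and 40.6 CPM in Col10a1-high and 2.92 and 8.58 CPM in Bglap-high cells. Under 10 CPM there, it entered only through Col10a1-high cells. It could therefore not be counted as higher, and at day 10 it had to be counted as lower.

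Against Aspn-high cells, 11 of 24 list genes were higher and 4 lower in Col10a1-high cells at day 10, and 10 and 4 of 23 at day 14, beside 7.65% and 6.87% of all genes higher and 14.8% and 16.7% lower. For Bglap-high cells the counts were 9 and 4 of 23, and 8 and 5 of 24, beside 5.41% and 4.55% higher and 17.9% and 13.3% lower. Vdr and, for Col10a1-high cells, Itgb3 were under 10 CPM in Aspn-high cells and entered only through the other class. They could not be counted as lower, which makes these counts a description too. Ctsb, a lysosomal protease, and Anxa2, a membrane-binding annexin, were lower in both classes at both days, with log2 ratios of −1.85 to −2.08 for Ctsb and −1.24 to −1.90 for Anxa2. Bmp1 (−1.19 and −1.49) and the osteopontin receptor Cd44 (−1.12 and −1.45) were lower in Col10a1-high cells, and Anxa6 (−1.21 and −1.26) and Itgb5 (−1.27 and −1.40) in Bglap-high cells. Fam20c, the kinase that phosphorylates SIBLING proteins, was 246 and 212 CPM in Col10a1-high, 146 and 116 CPM in Bglap-high and 13.8 and 11.6 CPM in Aspn-high cells. Smpd3, a sphingomyelinase needed for skeletal mineral, was 478 and 444 CPM, 602 and 567 CPM, and 26.4 and 17.0 CPM in the same order. Runx2 was higher in both mineralizing classes by log2 ratios of 1.26 to 1.57. None of the 4 phosphate and pyrophosphate genes with enough UMIs differed 2-fold between Bglap-high and Col10a1-high cells at either day. Dspp, the remaining gene of the chromosome 5 cluster, had 0 UMIs in the 3 classes at both days.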

How the data were processed

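Callus cells of 3 days were measured in 1 droplet library per day. The authors deposited raw UMI counts per gene and barcode, aligned to mm10. The submitters' processing notes name Cell Ranger 3.0, the matrix headers 3.1.0. The paper's methods name a later version than either, and which was used is not settled here. The deposited files hold 9103, 8801 and 12984 barcodes. Following the study's limits, cells with 500 to 5000 genes, at most 10% mitochondrial and at most 5% hemoglobin UMIs were kept, which gave 55187609, 113618580 and 154573230 UMIs. No doublet caller was run. Cells with at least 10 UMIs per 10,000 over 8 leukocyte genes were set apart.

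UMIs were summed per class and library and scaled to CPM, with exact Poisson intervals, ratios with exact binomial intervals and shares with Clopper-Pearson intervals, all at 95%. A difference was counted at 2-fold where the mean of both classes was at least 10 CPM and each class held at least 20 cells. Named genes were all 10 members, list genes counted at both days, and for each member the 2 genes with the highest r; 1 gene that this rule names is not reported here. Members, lists and class rules were chosen with earlier results of these data known; the division by Ifitm5 was chosen after its levels had been seen. The ratio script was tested on simulated Poisson counts. These hold no uneven spread over cells, so the test does not bear on that spread in the real data. Python 3.11.15, numpy 2.4.6, scipy 1.17.1, pandas 2.3.3 and matplotlib 3.10.9 were used.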

Additional observations from a re-analysis of the deposited data

Results flagged for a closer look

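Ratios between classes that had opposite signs in the day 10 and day 14 libraries, with both counting intervals clear of 0, were singled out. The difference between the days was not tested, because each day is 1 library. Ibsp, in Bglap-high over Col10a1-high cells, went from a log2 ratio of −0.43 (−0.45 to −0.41) to 0.47 (0.45 to 0.48), a difference of 0.89. In the same comparison Enpp1 went from 1.06 (0.84 to 1.27) to −0.18 (−0.35 to −0.02), a difference of −1.24. Ank went from 1.14 (0.92 to 1.34) to −0.62 (−0.81 to −0.44), a difference of −1.76. In Bglap-high over Aspn-high cells, Enpp1 went from 0.24 (0.04 to 0.44) to −0.56 (−0.72 to −0.40), a difference of −0.80.

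The opposite signs of Ank were present in 16 of 16 alternative settings. Those of Ibsp and of Enpp1 against Col10a1-high cells were present in 15 of 16, and were absent when only Col10a1-high cells under the Mmp13 level were used. Those of Enpp1 against Aspn-high cells were present in 14 of 16 and absent with all deposited barcodes and with cells passing 2 or 3 rules kept in each class. Some settings could not move a ratio. Dropping the filter on low values left all of these ratios as reported, and the Mmp13 setting left Enpp1 against Aspn-high cells as reported. With cells passing 2 or 3 rules kept, the Ibsp ratios were −1.10 and 0.09. The day 10 Bglap-high values rest on 62 cells, of which the 10% with the most held 65.9% of the Enpp1 UMIs and 81.6% of the Ank UMIs.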

How the results depend on the processing

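Counts of members at least 2-fold apart were recomputed under 16 alternatives, 14 planned and 2 added after seeing the data (Bglap-high cells with Col2a1 under 50, and Col10a1-high cells with Mmp13 under 5, per 10,000). No log2 ratio past 2-fold reversed its sign. Bglap-high over Col10a1-high at day 10 gave 5 higher as reported, but 3 with all deposited barcodes, 3 without the upper gene limit, 3 with an Aspn cut of 40 and 2 with cells passing several rules kept in each class. The count lower, 0 as reported, was 2 with such cells kept and 1 with Bglap-high cells under the Col2a1 level. At day 14 the count of 2 higher was 4 with no filter on low values. Col10a1-high over Aspn-high at day 10 gave 8 higher with no filter, and 1 lower (0 as reported) in Col10a1-high cells under the Mmp13 level. For day 14 over day 10, Col10a1-high cells gave 1 higher when thinned, 3 higher under the Mmp13 level, and 1 lower with a Col10a1 cut of 25 or with no filter. Bglap-high cells gave 1 higher with multiple-rule cells kept, with no filter and under the Col2a1 level, and 0 lower in place of 2 with multiple-rule cells kept. Aspn-high cells gave 1 lower with no filter. Spp1 in Bglap-high over Col10a1-high cells moved from −0.31 to 1.63 at day 10 and from −0.37 to 0.38 at day 14 when Col10a1-high cells were kept to those under the Mmp13 level. No paired analysis was possible because each day had 1 library. Mepe and Phospho1 had at most 37 UMIs in any of the 3 classes at day 10 or day 14, and the day 10 Bglap-high values rest on 62 cells.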

Other observations

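Without the upper limit on genes, the day 7 library held 32 Col10a1-high and 37 Aspn-high cells. Spp1 was 24562 CPM in those Col10a1-high and 858 CPM in those Aspn-high cells, Ibsp 44436 and 4806 CPM, Phex 189 and 1.84 CPM, and Alpl 1238 and 462 CPM. The 182 leukocyte-gene cells of day 14 carried 9049 CPM of Spp1 and 5608 CPM of Ibsp, with osteoclast markers summing to 731 CPM, of which Mmp9 was 621 and Acp5 97.3 CPM. The 6732 such cells of day 7 carried 64.9 and 310 CPM, and their osteoclast list sum of 1895 CPM was Mmp9 (1890 CPM), with 1 of its 6 genes above 10 CPM and 2 at 0.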
